A study of Rattus norvegicus with 28 samples.

Results

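A set of 10 genes that cells switch on quickly after a stimulus was followed in rat hepatocytes exposed to dioxin and dibenzofurans: the transcription factor genes Fos, Jun, Junb, Egr1, Myc and Atf3, the survival gene Ier3, and the phosphatase genes Dusp1, Dusp5 and Dusp6. Every non-control probe annotated to these genes was taken, with older names matched through the accession or gene identifier. Each of the 10 genes had 1 probe among the 41012 probes and 37806 gene names of the array, and Fos and Ier3 appear in the files under older spellings. RNA came from primary hepatocytes of 2 adult female Sprague-Dawley rats, called A and B, kept on Matrigel with insulin, transferrin, selenium and 0.1 uM dexamethasone for 48 h and then treated for 24 h. The treatments were TCDD at 0.01 and 1 nM, TCDF at 0.1 and 10 nM and PeCDF at 0.02 and 2 nM, all in 0.1% DMSO, and a further group was left untreated. Every array set one of these RNAs against RNA of cells of the same animal that received 0.1% DMSO alone, and every RNA was a pool of 3 dishes. With 2 animals and 2 dye orientations there were 4 arrays in each of the 7 groups, 28 in all. TCDD is a chlorinated dioxin, and TCDF and PeCDF are chlorinated dibenzofurans. All are ligands of the aryl hydrocarbon receptor (AHR).

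Immediate-early genes are transcribed within minutes of a signal without new protein synthesis, largely through kinases of the ERK, JNK and p38 cascades acting on serum response factor, CREB and AP-1 proteins. Fos and Jun proteins pair to form AP-1, Egr1 is a zinc finger factor, Myc drives growth genes and Atf3 is a stress-induced member of the CREB/ATF family. The Dusp enzymes remove phosphate from the kinases that induced them and so close the loop: Dusp5 and Dusp6 act chiefly on ERK, Dusp1 on p38, JNK and ERK. In liver these genes are best known from regeneration and from the isolation of hepatocytes itself. All samples here were taken after 24 h of treatment, a single time.

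The signal was sufficient for 9 of the 10 genes, whose probes were well above background on 28 of 28 arrays in both channels. Fos was well above background on 15 of 28 arrays in the test channel and on 15 of 28 in the DMSO channel, with 5.10 to 24.9 intensity units over background in the test channel. No probe of the 10 genes was saturated or marked as irregular. On 1 array, the second orientation of animal A at 10 nM TCDF, the background correction left dim probes higher than elsewhere: the 1st percentile of normalised intensity was 170 in the test and 171 in the DMSO channel there, against 53.5 to 65.2 on the other 27 arrays, which pulls the ratios of dim genes on it towards 0. As a check of the receptor, 4 AHR targets were examined: Cyp1a1, Cyp1b1, Nqo1 and Tiparp. Of these limma called 4 higher at 1 nM TCDD, 3 at 10 nM TCDF, where the lowest log2 ratio was 0.80, and 4 at 2 nM PeCDF. The probe of Cyp1a1 was saturated in the test channel of 20 arrays. Cyp1b1 rose by a log2 ratio of 3.93 at 1 nM TCDD, 2.07 at 10 nM TCDF and 2.78 at 2 nM PeCDF. A further probe of Cyp1b1 gave 1.62, 0.33 (adjusted p = 0.132 from limma) and 0.56. All 14 hepatocyte markers examined were well above background in the DMSO channel of all 28 arrays, and so were 12 of 12 Kupffer cell and leukocyte markers, 10 of 10 stellate cell and fibroblast markers, 5 of 7 endothelial and 7 of 8 bile duct markers. At 1 nM TCDD limma called 5 of the 12 Kupffer cell, 3 of the 10 stellate cell and 2 of the 8 bile duct markers lower. Of the 14 hepatocyte markers 3 were lower and 1 higher, and none of the 7 endothelial markers was called. Over all genes 5.92% were called lower and 4.63% higher there. The summed level of each marker list was taken as a log2 ratio to DMSO on the 4 arrays of a group. For the Kupffer cell list it lay between -0.24 and -0.18 at 1 nM TCDD and between -0.27 and -0.07 in untreated cells. For the stellate cell list it was -0.29 to -0.22 at 1 nM TCDD and -0.09 to -0.03 untreated. The bile duct list had -0.56 to -0.29 and, untreated, -0.08 to -2.79e-05. The hepatocyte list spread from -0.83 to 0.62 at 1 nM TCDD and from -0.65 to 0.65 untreated. Single bile duct markers lay between -1.35 (Anxa13) and 0.10 at 1 nM TCDD, with a median of -0.08. Those of the stellate cell list lay between -0.91 (Lox) and 0.10, with a median of -0.03. Those of the Kupffer cell list lay between -0.60 (Lyz2) and -0.03, with a median of -0.18. The medians of the hepatocyte and endothelial markers were -0.11 and -0.01. None of these markers was at background on all arrays. The part of these cells in the results below was not tested. In pooled RNA fewer cells of a type and less RNA of single marker genes per cell cannot be told apart.

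At 1 nM TCDD 4 of the 10 genes rose and 1 fell. Ier3, Egr1, Atf3 and Dusp5 were higher than in DMSO, and Dusp1 was lower. A call is an adjusted p under 0.05 from limma over all 34848 genes tested. In this comparison 10.6% of all genes were called: 4.63% of all genes were higher and 5.92% lower. The median log2 ratio of the 10 genes was 0.27, against a median of -0.00127 over all genes. At 2 nM PeCDF 2 of the 10 rose, Ier3 and Dusp5, where 4.39% of all genes were called (1.72% higher, 2.67% lower), and at 10 nM TCDF none of the 10 was called, where 2.36% of all genes were. At an unadjusted p under 0.05 the counts were 8 of 10 for TCDD, 7 for PeCDF and 1 for TCDF at these upper doses. The share of all genes under that unadjusted threshold is not given, here or below, so such counts have no baseline.

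**Figure D1:**
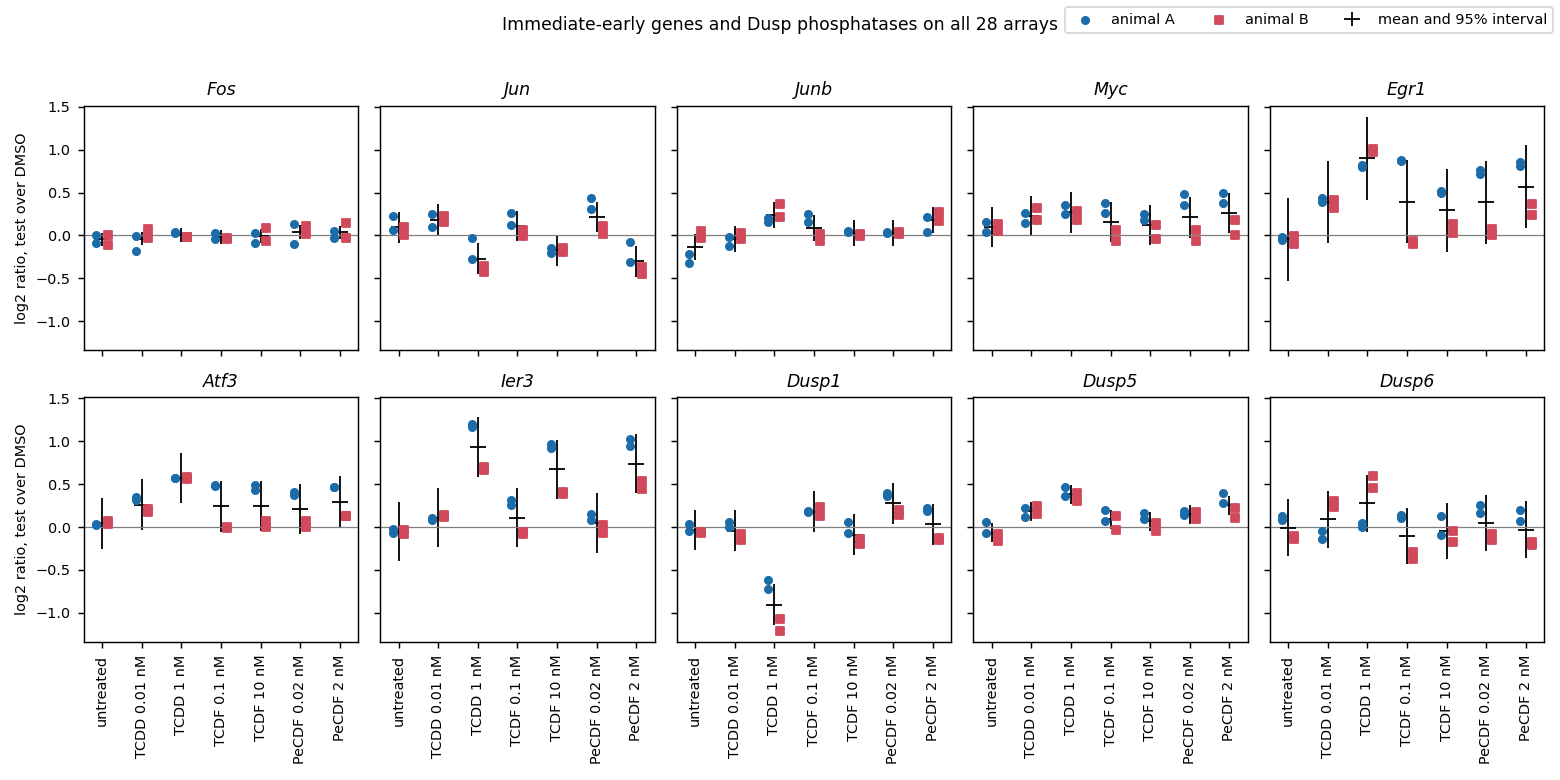
Log2 ratio of test RNA over DMSO RNA (vertical axis) for the 10 genes in the 7 groups (horizontal axis), with 1 point per array (circles, animal A; squares, animal B) and the group mean with its 95% interval from limma in black. Dusp1 lies below 0 on all 4 arrays at 1 nM TCDD, and Egr1, Atf3 and Myc of animal A lie above those of animal B in all 4 furan groups.

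The stretches just before the start sites of 3 of the called genes are given here, with matches to known binding sequences marked. Whether these sequences were in use in these cells was not tested. RefSeq promoter entries (build GRCr8) matched 5 of the 10 genes: Egr1, Junb, Dusp1, Dusp5 and Dusp6. Shown are the 250 bases before the start, 5′ to 3′ on the strand of the gene, which is the plus strand in each case. They lie at chr18:26736828-26737077 for Egr1, chr1:262543524-262543773 for Dusp5 and chr10:17184603-17184852 for Dusp1. Capitals mark the CArG box (the sequence bound by serum response factor), the cAMP response element TGACGTCA and the AHR core sequence GCGTG, read on both strands.
Egr1: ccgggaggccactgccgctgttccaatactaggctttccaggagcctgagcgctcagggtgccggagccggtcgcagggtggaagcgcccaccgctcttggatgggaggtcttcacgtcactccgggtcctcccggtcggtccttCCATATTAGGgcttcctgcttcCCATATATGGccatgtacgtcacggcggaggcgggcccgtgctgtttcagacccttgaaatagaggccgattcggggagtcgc
Dusp5: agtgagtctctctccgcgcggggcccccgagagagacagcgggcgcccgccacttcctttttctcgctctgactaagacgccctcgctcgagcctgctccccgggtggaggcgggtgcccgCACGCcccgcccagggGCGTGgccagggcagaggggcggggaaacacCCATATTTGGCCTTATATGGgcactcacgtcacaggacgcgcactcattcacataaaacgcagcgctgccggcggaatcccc
Dusp1: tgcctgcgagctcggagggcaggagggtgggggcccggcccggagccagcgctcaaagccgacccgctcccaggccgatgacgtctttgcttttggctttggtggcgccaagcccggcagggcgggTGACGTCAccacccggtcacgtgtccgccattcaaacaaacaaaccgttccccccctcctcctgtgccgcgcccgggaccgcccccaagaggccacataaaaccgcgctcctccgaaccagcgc
Egr1 held 2 CArG boxes, which began 105 and 83 bases before the start. Dusp5 held 2 as well, beginning 82 and 72 bases before it and directly abutting, and it also held 2 AHR core sequences, beginning 129 and 113 bases before the start. Dusp1 held no CArG box and no AHR core sequence, but 1 cAMP response element beginning 124 bases before the start. Of 27457 windows of the same length in the table, 1.5% held a CArG box, 1.7% the cAMP response element and 27.2% the AHR core sequence. None of these 3 windows held the AP-1 sequence TGANTCA, found in 6.36% of windows. The Junb window held 2 AHR core sequences, and the Dusp6 window held none of the 4 sequences. The first 5 bases of the cAMP response element, TGACG, were not marked on their own and occurred in 19% of windows. They matched 3 times in Dusp1, 2 times in Egr1, 1 time in Dusp5, 1 time in Junb and 0 times in Dusp6. The matches of Dusp1 that began 124 and 121 bases before the start lie within its marked element. A match describes the letters in the window only.

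Egr1, the zinc finger factor, rose to 1.87 times its DMSO level at 1 nM TCDD. Its normalised intensity in TCDD-treated cells was 2334 and 2371 in animal A and 1333 and 1215 in animal B, against 1339 and 1345 and then 663 and 617 in the DMSO cells hybridised beside them. The 4 log2 ratios were 0.80, 0.82, 1.01 and 0.98, and their mean was 0.90 ± 0.22 (SE, n = 2 animals, adjusted p = 0.0247 from limma). Both animals and both dye orientations were high, and no array came near 0. The call was lost without animal A (adjusted p = 0.0826), without animal B (0.242) and with no background correction (0.0542), at log2 ratios of 0.99, 0.81 and 0.76. At 0.01 nM TCDD the 4 arrays lay between 0.32 and 0.43 (mean 0.39, adjusted p = 0.618), below all 4 arrays of the upper dose.

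Atf3, the stress-induced repressor and activator of the CREB/ATF family, rose at 1 nM TCDD by a log2 ratio of 0.57 ± 0.13 (SE, n = 2, adjusted p = 0.021 from limma), or 1.48-fold. Its 4 arrays lay close together, at 0.57, 0.57, 0.56 and 0.58. The call was lost without animal A (adjusted p = 0.104) and without animal B (0.169), although each animal alone gave 0.57. The SE is pooled over all 7 groups, and it took in the wide split between the animals in the furan groups described below. A replicate block that gave each animal its own term in each Feature Extraction session was an alternative chosen after seeing that split. It takes the split out of the spread, so its calls add no support. With it the adjusted p values from limma at 1 nM TCDD became 0.00409 for Myc, 0.0157 for Jun and 0.025 for Junb.

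Myc, the growth regulator, had log2 ratios of 0.25 and 0.36 in animal A and 0.18 and 0.29 in animal B at 1 nM TCDD (mean 0.27 ± 0.11, adjusted p = 0.154 from limma). It was above 0 on all 4 arrays there, and also at 0.01 nM TCDD (mean 0.23) and in the untreated cells (mean 0.10). Among the groups read in the same session alone it was called at 1 nM TCDD (adjusted p = 0.0119).

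Jun and Junb, subunits of AP-1, had opposite signs at the upper doses. Jun, the main activating partner of Fos, had 4 log2 ratios between -0.42 and -0.03 at 1 nM TCDD, between -0.20 and -0.14 at 10 nM TCDF and between -0.45 and -0.07 at 2 nM PeCDF. All 12 of these arrays were below 0, yet none of the 3 means, -0.27, -0.17 and -0.30 (SE 0.08 each), passed the test (adjusted p = 0.0618, 0.427 and 0.0681 from limma). With the animal as a replicate block Jun was called at 1 nM TCDD (adjusted p = 0.0157) and at 2 nM PeCDF (0.0186). Junb, a weaker activator that can oppose Jun, was above 0 on all 4 arrays at 1 nM TCDD (0.16 to 0.36, mean 0.23 ± 0.07, adjusted p = 0.0546) and at 2 nM PeCDF (0.05 to 0.28, mean 0.18, adjusted p = 0.199). At 10 nM TCDF Junb lay between -0.01 and 0.05.

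Fos, the partner of Jun in AP-1, gave group means between -0.05 and 0.04 in all 7 groups, with 95% intervals that reached from -0.13 to 0.12 at most. Its probe was near background, where the background correction used here draws ratios towards 0, so a difference of moderate size would not have been detectable. On the second orientation of animal A at 10 nM TCDF the normalised intensities of Fos were 187 and 184, although its signal over background there, 22.5 in the test and 13.2 in the DMSO channel, was within the range of the other arrays.

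Ier3, a gene induced by growth factors and stress whose product prolongs ERK signalling and protects against cell death, had the highest mean ratio among the 10 at each of the 3 upper doses. At 1 nM TCDD its normalised intensity was 6021 and 6142 in animal A and 4153 and 5226 in animal B, against 2677 and 2662 and then 2623 and 3225 in DMSO cells. The log2 ratio was 1.19 in animal A and 0.68 in animal B, with a mean of 0.93 ± 0.16 (SE, n = 2, adjusted p = 0.00358 from limma). At 10 nM TCDF the ratios were 0.95 and 0.40 (mean 0.67, adjusted p = 0.0559), and at 2 nM PeCDF 0.99 and 0.49 (mean 0.74, adjusted p = 0.0266). Animal A was above animal B at each upper dose, and at the lower doses and in untreated cells every array lay between -0.08 and 0.32. The replicate block brought 10 nM TCDF past the threshold (adjusted p = 0.0116), and so did leaving out the array with the raised baseline (0.66, adjusted p = 0.05 after rounding). The call at 1 nM TCDD was lost without animal A (0.68, adjusted p = 0.0576), and at 2 nM PeCDF it was lost without animal A (0.49, adjusted p = 0.418) and among the groups of its own session alone (adjusted p = 0.0612).

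Dusp1, the phosphatase that switches off p38 and JNK, fell by 0.91 ± 0.11 on the log2 scale at 1 nM TCDD (SE, n = 2, adjusted p = 0.000515 from limma), a level 1.87-fold lower than in DMSO. Its normalised intensity in TCDD-treated cells was 289 and 292 in animal A and 171 and 243 in animal B, against 443 and 482 and then 360 and 562 in DMSO cells. The log2 ratios were -0.62 and -0.72 in animal A and -1.08 and -1.21 in animal B, so all 4 arrays were low and animal B was the lower of the pair. Of all genes, 99.7% had a higher ratio. The call held in all 14 alternatives run, with log2 ratios from -1.14 to -0.51. In no other group was Dusp1 called: its means were -0.04 at 0.01 nM TCDD, 0.18 and -0.09 at 0.1 and 10 nM TCDF, and 0.28 and 0.03 at 0.02 and 2 nM PeCDF.

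Dusp5, a nuclear phosphatase of ERK and itself induced by ERK, rose at 1 nM TCDD and at 2 nM PeCDF. The arrays at 1 nM TCDD gave 0.47 and 0.36 in animal A and 0.39 and 0.31 in animal B (mean 0.38 ± 0.05, SE, n = 2, adjusted p = 0.000967 from limma), and the call held in all 14 alternatives. Those at 2 nM PeCDF gave 0.40, 0.29, 0.23 and 0.11 (mean 0.26 ± 0.05, adjusted p = 0.0203). That second call was lost without animal A (0.17, adjusted p = 0.374), among the groups of its own session alone (0.0571) and with the log ratios processed by Agilent's software (0.0681). At 10 nM TCDF the arrays lay between -0.05 and 0.17 and the mean of 0.07 did not pass.

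Dusp6, the cytoplasmic ERK phosphatase, was not called in any group. Its animals differed: at 1 nM TCDD the log2 ratios were 0.00 and 0.05 in animal A and 0.46 and 0.60 in animal B (mean 0.28 ± 0.15, adjusted p = 0.314 from limma). In all 4 furan groups animal A was instead above animal B, by 0.13 to 0.45.

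**Figure D2:**
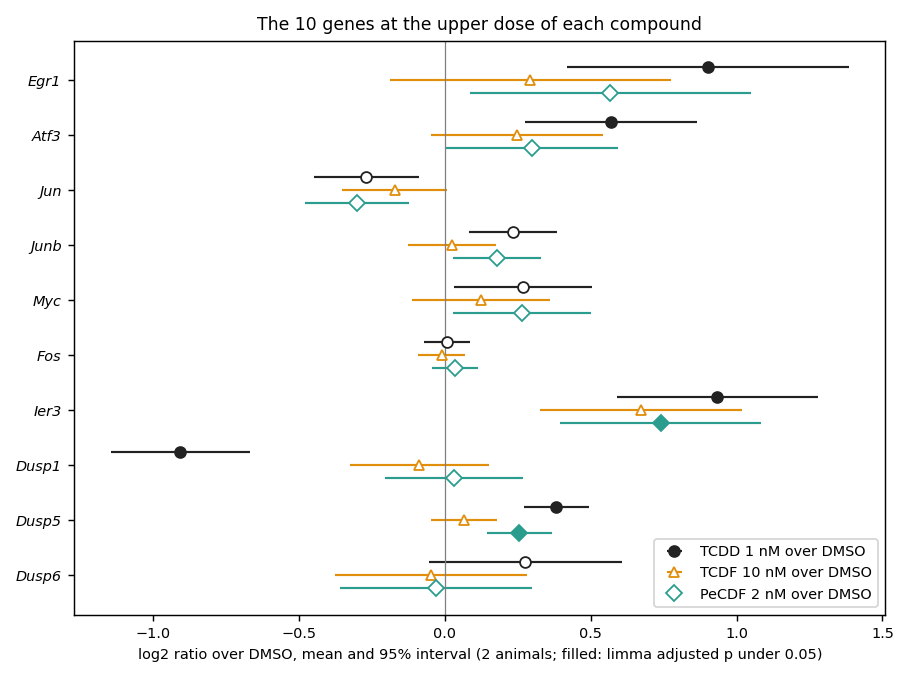
Mean log2 ratio over DMSO (horizontal axis) with its 95% interval for the 10 genes at the upper dose of each compound (circles, TCDD 1 nM; triangles, TCDF 10 nM; diamonds, PeCDF 2 nM), filled where the adjusted p from limma was under 0.05. Ier3 lies at 0.93, 0.67 and 0.74, while Dusp1 lies at -0.91 for TCDD and at -0.09 and 0.03 for the furans.

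The compounds share the 2 animals but were given at different doses, 1, 10 and 2 nM, and TCDD was read in another Feature Extraction session than the furans, so their values stand side by side without a test. For Dusp1 the 95% interval was -1.14 to -0.67 at 1 nM TCDD, -0.32 to 0.15 at 10 nM TCDF and -0.21 to 0.27 at 2 nM PeCDF. For Dusp5 the intervals were 0.27 to 0.49 for TCDD, -0.05 to 0.18 for TCDF and 0.14 to 0.37 for PeCDF. For Ier3 they overlapped broadly, at 0.59 to 1.28, 0.33 to 1.02 and 0.40 to 1.09. For Jun they overlapped as well, at -0.45 to -0.09, -0.35 to 0.01 and -0.48 to -0.12. TCDF, the furan with fewer chlorine atoms, had the ratio nearest 0 of the 3 for Egr1, Atf3, Jun, Junb, Myc, Ier3 and Dusp5 and was given at the highest dose.

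Between the doses of a compound, Dusp1 was the only member called, at 1 nM against 0.01 nM TCDD. It fell by 0.87 ± 0.15 on the log2 scale at 1 nM against 0.01 nM TCDD (adjusted p = 0.012 from limma), where 3.74% of all genes were called (1.39% higher, 2.34% lower). Within animals the step was -0.70 in A and -1.03 in B. The call was lost without animal B (-0.63, adjusted p = 0.0598) and in the session alone (adjusted p = 0.0598). For TCDF the step of Dusp1 was -0.19 in animal A and -0.35 in animal B (mean -0.27), and for PeCDF it was -0.18 and -0.32 (mean -0.25). These were below 0 in both animals but not called, and none of the 10 genes was called in either comparison (2 of 10 at an unadjusted p under 0.05 in each), where 0.089% and 0.0833% of all genes were.

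The steps of Ier3 were above 0 and those of Jun below 0 in every animal and compound, but none passed the test. For Ier3 the upper dose exceeded the lower by 1.09 and 0.55 for TCDD, 0.66 and 0.46 for TCDF and 0.87 and 0.52 for PeCDF, in animals A and B in that order. The adjusted p values from limma were 0.0739, 0.997 and 0.567. For Jun the same steps were -0.32 and -0.58, then -0.37 and -0.20, then -0.57 and -0.47, with adjusted p values of 0.0603, 1 and 0.221. All 4 arrays of the upper dose lay apart from all 4 of the lower dose in each of these 6 comparisons, and for Jun the mean was above 0 at every lower dose and below 0 at every upper dose. With the animal as a replicate block both genes were called for TCDD (Ier3, adjusted p = 0.0152; Jun, 0.0158), which made 3 members called in place of 1. Egr1 had steps of 0.40 and 0.63 for TCDD, but -0.37 and 0.17 for TCDF and 0.09 and 0.27 for PeCDF. The TCDD step of Egr1 was called by limma among the groups of the same session alone (adjusted p = 0.0336). With the block of animal by session the adjusted p values of the TCDD steps from limma were 0.035 for Egr1 and 0.0172 for Atf3. That block was chosen after seeing the data, so these calls add no support.

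**Figure D3:**
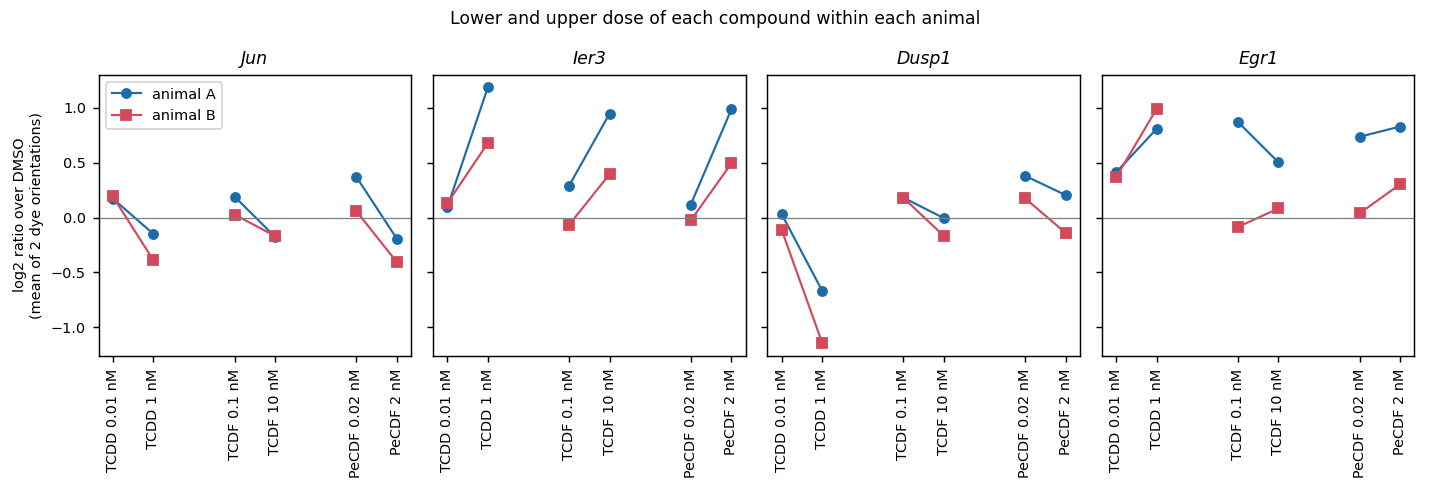
Log2 ratio over DMSO (vertical axis, mean of the 2 dye orientations) of Jun, Ier3, Dusp1 and Egr1 at the lower and upper dose of each compound (horizontal axis), with lines joining the doses within animal A (circles) and animal B (squares). Jun is lower and Ier3 higher at the upper dose in all 6 lines, whereas for Egr1 the furan lines of animal A lie above those of animal B.

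At the lower doses and in untreated cells no member was called. The shares of all genes called there were 0.451% at 0.01 nM TCDD, 0.00287% at 0.1 nM TCDF, 0% at 0.02 nM PeCDF and 0.043% in untreated cells. At an unadjusted p under 0.05 the members numbered 2 for TCDD (Jun and Dusp5), 0 for TCDF, 3 for PeCDF (Jun, Dusp1 and Dusp5) and 0 in untreated cells. In untreated cells, which lacked the solvent, the means of the 10 genes lay between -0.13 and 0.10. Those of the lower doses reached 0.39 in each case, and that highest value was Egr1 in all 3 groups.

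In the furan session animal A was above animal B in all 4 groups for 7 of the 10 genes: Egr1, Atf3, Myc, Ier3, Dusp1, Dusp5 and Dusp6. The share of all genes with that pattern is not given, so this count has no baseline. In animal A the log2 ratio of Egr1 was 0.87 and 0.50 at 0.1 and 10 nM TCDF and 0.74 and 0.83 at 0.02 and 2 nM PeCDF. In animal B it was -0.08 and 0.08 for TCDF and 0.04 and 0.30 for PeCDF. For Atf3 the 4 furan groups lay between 0.39 and 0.49 in animal A and between -0.01 and 0.13 in animal B. Myc lay between 0.21 and 0.44 in animal A and between 0.00 and 0.09 in animal B. In the session of the untreated and TCDD arrays the mean difference between the animals was -0.04 for Egr1, 0.04 for Atf3 and 0.01 for Myc, against 0.65, 0.40 and 0.31 in the furan session. For Ier3 it was 0.16 and 0.39 in the same order, for Dusp6 -0.21 and 0.31 and for Dusp5 0.05 and 0.11. Dusp1 had 0.22 and 0.18, with animal A above animal B in all 3 groups of the untreated and TCDD session too. All furan ratios of an animal are set against DMSO RNA of that animal, and it is not stated whether 1 preparation of it served every array. The part of that RNA in these values was not tested, and compound and session cannot be told apart. The block of animal by session was chosen after seeing this split between the animals and takes it out of the spread, so its calls add no support. With it limma called Egr1, Atf3 and Myc at 2 nM PeCDF (adjusted p = 0.0058, 0.00519 and 0.00999). It also called Atf3 at 10 nM TCDF (0.0145) and at 0.01 nM TCDD (0.0299). At 10 nM TCDF Atf3 had 0.46 in animal A and 0.04 in animal B.

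The counts over whole surrounding gene lists at 1 nM TCDD stand against 10.6% of all genes called there. Genes named from each list were picked by their p in this same comparison, so their number of calls has no such baseline. Among the up to 4 genes of each list with the smallest p, 24 were called there, and 8 of them kept the call without either animal: Areg, Ereg, Map3k8, Klf4, Jund, Ccn2, Btg1 and Cblb. Without animal A 9 lost it and without animal B 11. Of the other immediate-early transcription factors 4 of the 18 tested rose and 1 fell (median log2 ratio 0.05). Klf4, a zinc finger factor of epithelial differentiation, rose by 0.80 ± 0.07 (adjusted p = 8.28e-05 from limma), and Fosl1, a partner of Jun, by 0.45 ± 0.10 (0.0144). Jund, another Jun subunit, rose by 0.39 ± 0.06 (0.0016), but a further probe of Jund gave -0.04. Klf10, induced by TGF-beta, fell by 0.59 ± 0.11 (0.00663). At 2 nM PeCDF 1 of the 18 rose (Klf4, 0.39) and at 10 nM TCDF limma called none (5 at an unadjusted p under 0.05). The call of Klf4 at 2 nM PeCDF was lost without animal A (0.32) and also without animal B (0.46).

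Among the other immediate-early genes 4 of 19 rose and 3 fell at 1 nM TCDD (median -0.01). Plk2, a polo-like kinase, rose by 0.86 ± 0.16 (adjusted p = 0.00761 from limma), with 1.30 in animal A and 0.43 in animal B, and the call was lost without animal A (adjusted p = 0.0799). The largest change was a fall of Ccn2, a matrix protein induced by TGF-beta and YAP, whose log2 ratio was -1.55 ± 0.14 (0.000108), and which also fell at 10 nM TCDF (-1.34) and 2 nM PeCDF (-0.89). Btg1, an antiproliferative gene, fell at all 3 upper doses (-0.75, -0.45 and -0.29). Its probe was saturated on 2 of 28 arrays in the test channel and 6 of 28 in the DMSO channel. At 2 nM PeCDF the calls of Ccn2 and Btg1 were lost without animal A (-0.94 and -0.33) and also without animal B (-0.84 and -0.25). At 10 nM TCDF that of Btg1 was lost without animal A (-0.35). Zfp36, which promotes decay of cytokine mRNAs, fell by 0.41 ± 0.07 at 1 nM TCDD (0.00406).

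Of the other Dusp genes, 9 were tested and none was called by limma at any dose (0 of 9 also at an unadjusted p under 0.05). Their log2 ratios lay between -0.06 and 0.18 at 1 nM TCDD. The highest came from a probe named Dusp3 whose description in the files names another gene, and a further Dusp3 probe gave -0.01. Without Dusp3 the 8 others lay between -0.06 and 0.06. Of 14 further feedback inhibitors of receptor tyrosine kinases, 1 was called at 1 nM TCDD: Cblb, a ubiquitin ligase that removes activated receptors, fell by 0.29 ± 0.04 (adjusted p = 0.00147), and it fell at 10 nM TCDF (-0.21) and 2 nM PeCDF (-0.41) as well. Spry2, an inhibitor of the same pathway, had 0.08 (0.261). At 10 nM TCDF the call of Cblb was lost without animal A (-0.24) and also without animal B (-0.17).

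Upstream, of 7 EGF receptor ligands 2 rose at 1 nM TCDD, Ereg and Areg, the genes of epiregulin and amphiregulin. Areg rose by 2.47 ± 0.23 (adjusted p = 0.000118 from limma) there and by 0.99 at 2 nM PeCDF (0.0375), and had 0.77 at 10 nM TCDF (0.14). Ereg rose by 2.79 ± 0.18 (1.19e-05) and 1.07 (0.00979) at the same doses of TCDD and PeCDF, where its probe was well above background on all 4 arrays in both channels. At 2 nM PeCDF Areg had 1.54 in animal A and 0.44 in animal B and Ereg 1.52 and 0.62, and neither was called without animal A (adjusted p = 0.522 and 0.174). Of 21 genes of the ERK cascade 1 rose and 2 fell at 1 nM TCDD, a share near that of all genes. Map3k8, a kinase upstream of MEK, rose by 1.88 ± 0.20 (0.000305), while Egfr, the receptor of these ligands, fell by 0.25 ± 0.05 (0.0147) and Met, the receptor of hepatocyte growth factor, fell by 0.18 ± 0.05 (0.0481). At 10 nM TCDF and 2 nM PeCDF limma called none of the 21 (6 at an unadjusted p under 0.05 in each).

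In the stress-kinase cascades, which Dusp1 restrains, 3 of 15 genes fell at 1 nM TCDD and none rose. Map3k4 fell by 0.41 ± 0.10 (adjusted p = 0.0257 from limma), Map3k5 by 0.40 ± 0.07 (0.00536, a further probe at -0.11) and Mapk14, the gene of p38 alpha, by 0.27 ± 0.06 (0.0189). Map3k4 was at -0.16 in animal A and -0.67 in animal B, and Map3k5 at -0.23 and -0.57, and neither was called without animal B (adjusted p = 0.488 and 0.118). Mapk14 was not called without animal A (-0.18, adjusted p = 0.22), and its further probes gave -0.21 and -0.24, not called (0.158 and 0.197). Of the 10 partners and antagonists of Myc tested, Mlx, Mycn and Mxi1 fell by 0.37, 0.28 and 0.22. Without animal B Mlx had -0.21 (adjusted p = 0.169) and Mxi1 -0.14 (0.432). Without animal A Mycn had -0.15 (0.191), and its probe was well above background on only 14 of 28 DMSO channels. Of 14 dimer partners of Atf and Jun proteins 3 rose and 1 fell. Creb1, which binds the cAMP response element, rose by 0.26 ± 0.04 (0.00173) at 1 nM TCDD. It had 0.27 and 0.25 at the upper doses of TCDF and PeCDF, both called. Both furan calls were lost without animal A (0.26 and 0.23) and also without animal B (0.28 and 0.26). Cebpd and Atf4 rose by 0.62 and 0.24, and Ddit3, which pairs with Atf3 and Atf4 in the stress response, fell by 0.22.

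**Figure D4:**
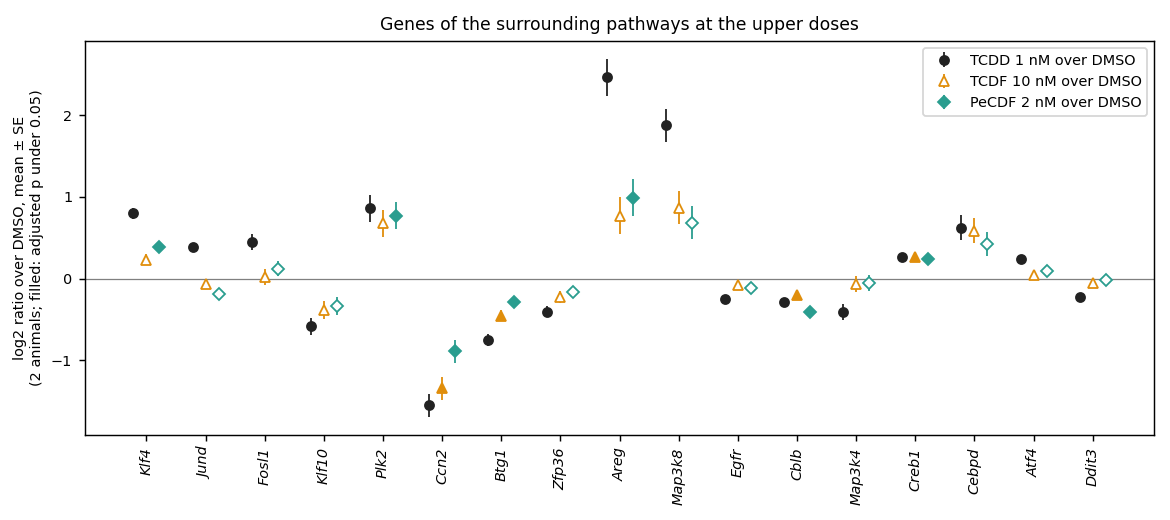
Mean log2 ratio over DMSO ± SE (vertical axis) of 17 genes chosen from the surrounding pathways, Ereg not among them (horizontal axis) at the upper dose of each compound (circles, TCDD 1 nM; triangles, TCDF 10 nM; diamonds, PeCDF 2 nM), filled where the adjusted p from limma was under 0.05. Of the genes plotted, Areg and Map3k8 stand highest, at 2.47 and 1.88 for TCDD, and Ccn2 lowest, at -1.55.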

How the data were processed

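RNA of 7 groups of rat hepatocytes was hybridised against DMSO RNA of the same animal on 28 two-colour Agilent arrays. The authors deposited scanner files with mean spot signals and local backgrounds in units of intensity, per the file headers, and a log10 ratio of red over green. The deposited table of the series holds the same log10 ratio turned to test over DMSO (largest difference 4.995e-06). Feature Extraction A.7.5.1 is named in the file headers and 9.1 in the submitters' processing notes. The headers place these readings on 4 days in 2 sessions, untreated and TCDD in one, TCDF and PeCDF in the other, and within a session the day coincides with the dye orientation.

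From the deposited intensities, log2 ratios were computed with limma 3.58.1 in R 4.3.3: normexp with an offset of 50, loess within arrays with 2256 control spots at weight 0, and 1067 marked spots (0.0921%) dropped. The dye orientations of an animal were averaged to 14 ratios. Probes had to be well above background on all 4 test channels of a group or on 14 of 28 DMSO channels, and the brightest probe of a gene name was used. limma fitted the 7 group means (3.2 prior and 7 residual degrees of freedom) with Benjamini-Hochberg adjustment over 34848 genes. On data simulated for 1 nM TCDD with 34848 genes, 98% of log2 changes of 1 and 90% of 0.5 were recovered, with 10 false calls. The simulated ratios were independent draws with the spread of the fit. They lacked the correlation between groups of a session given below, so these shares hold for that setting only. Further alternatives were added after seeing the data: animal by session as a block, and 10 nM TCDF without the 1 array whose background correction left a raised baseline. The number of arrays limits the precision. Symbols and promoters came from RefSeq tables of GRCr8, with coordinates used only for the promoters.

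The replicate numbers stand for the same 2 animals in every group. Deviations from the group means of same-numbered samples correlated between -0.00425 and 0.563 over 9 pairs of groups of a session and between -0.393 and 0.290 over 12 pairs across sessions. The members and gene lists were chosen with earlier results of these data known. Genes named outside the 10 were up to 4 of each list with the smallest p at 1 nM TCDD, some of them left out. The others were Cyp1a1, Cyp1b1, Nqo1 and Tiparp as checks of the receptor, and the 2 genes most alike to each called member.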

Additional observations from a re-analysis of the deposited data

Results flagged for a closer look

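The effect of TCDD on Dusp1 differed between its doses: the ratio to DMSO at 1 nM was lower than that at 0.01 nM by a log2 difference of -0.87 ± 0.15 (adjusted p = 0.012 from limma), and the 4 arrays of each dose did not overlap. Among the 70 sets of 4 arrays (10 genes in 7 groups) none was marked by Dixon's criterion, but each set holds 2 dye orientations of 2 animals, so its values come in pairs and the criterion says nothing here.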

How the results depend on the processing

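Of 8 single calls of members, Dusp1 and Dusp5 at 1 nM TCDD held under all 14 alternatives; the others were lost under at least 1, as given with each gene. No called ratio changed sign under any alternative. At 1 nM TCDD 5 members were called, against 8 with the array-level fit with a dye term, 8 with a replicate block of animal by session (chosen after seeing the data) and 3 without replicate 1 or without replicate 2. At 2 nM PeCDF 2 were called, against 1 with Agilent's processed log ratio, 1 with the deposited series values, 6 with the block within sessions, 7 at array level, 0 within the session alone and 0 to 2 without a replicate. At 10 nM TCDF 0 were called, against 1 when probes had to be well above background on all 28 arrays, 1 with the animal as a replicate block, 2 with the block within sessions, 1 at array level and 1 without the array whose baseline was raised (also chosen after seeing the data). At 0.01 nM TCDD the count was 0, against 1 with the block within sessions and 1 at array level. For the TCDD dose step it was 1, against 3 with the replicate block, 5 with the block within sessions, 5 at array level and 0 to 2 without a replicate, and for the PeCDF step 0, against 2 at array level. The array-level fit counts the dye orientations of an animal as correlated arrays (correlation 0.39). The animal as a replicate block moved no other count of members by over 1.5 times. Over all genes 3677 were called at 1 nM TCDD, against 1595 without animal B and 6437 at array level. At 2 nM PeCDF 1530 were, against 136 and 658 without animal A and B, and at 10 nM TCDF 823, against 64 and 260. With the deposited series values these were 739 and 418, and at array level 4495 and 2804. Over the 14 alternatives the count lay between 14 and 714 at 0.01 nM TCDD (157 as reported), 0 and 622 at 0.1 nM TCDF (1), 0 and 602 at 0.02 nM PeCDF (0) and 0 and 767 in untreated cells (15). For the dose steps it lay between 651 and 3627 for TCDD (1303), 0 and 434 for TCDF (31) and 3 and 569 for PeCDF (29). The cause of these differences was not tested. With 2 animals per group, a removed animal leaves 1, assumed to vary like the other groups.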

Other observations

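The 14 animal-level ratios come from 2 animals, each set against DMSO RNA of the same animal. Over them Egr1, Atf3 and Myc varied together (Pearson r = 0.96 for Egr1 with Atf3 and 0.856 for Egr1 with Myc). Dusp5 varied with these genes (0.812 with Egr1). All correlations given here take in the split between the animals in the furan session, and its part in them was not tested. Jun and Dusp1 correlated with each other at 0.625 and with Ier3 at -0.646 and -0.462. Among 14928 named genes with complete values, the patterns most like that of Dusp1 were those of St14, the membrane protease matriptase (r = 0.956), and Fgl1, a protein secreted by hepatocytes (0.95). At 1 nM TCDD St14 fell by 0.54 ± 0.08 (adjusted p = 0.00213 from limma) and Fgl1 by 0.27 ± 0.05 (0.00403). The patterns most like those of Egr1 and Atf3 were Slc7a5, a transporter of large neutral amino acids (0.871 and 0.922), and Plekhm2 (0.875 and 0.902). Those most like Dusp5 were Btbd3 (0.882) and Nfkbia, the NF-kappaB inhibitor (0.88). Those most like Ier3 were probes annotated to Hspa8 pseudogenes, Hspa8-ps27 (0.98) and Hspa8-ps34 (0.971), whose signal cannot be told apart from near-identical copies.

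In the DMSO channel itself the animals differed for the same transcription factors. Relative to each array's median over all genes tested, the log2 intensity of Myc had a median of 6.15 over the 14 arrays of animal A and 5.26 over the 14 of animal B. For Atf3 the medians were 4.38 and 3.55, and for Egr1 3.56 and 2.73. Dusp6 was lower in animal A, at 1.88 against 2.44. Over all arrays the ranges of the animals overlapped for all 10 genes. Without the array of animal A with the raised baseline they did not overlap for Myc (5.90 to 6.65 in animal A, 4.95 to 5.48 in animal B) or Atf3 (4.09 to 4.75 and 3.28 to 3.70). Each animal is 1 individual, so no test was made.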
